A study of Homo sapiens with 12 samples.

Results

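The genes described here are CIITA and 9 genes of the HLA class II route: CD74, HLA-DRA, HLA-DRB1, HLA-DPA1, HLA-DPB1, HLA-DMA, HLA-DMB, HLA-DQA1 and HLA-DQB1. These 10 genes were taken by name from the 57353 genes of the count table. They were selected on their measured changes between the groups of these same libraries, so their levels and fold changes are given as a description, with a standard error and no p-value. RNA came from MOLM-13, an established acute myeloid leukemia (AML) cell line that carries FLT3-ITD, an activating duplication in the kinase FLT3. All cells were of the unmodified genotype. They were cultured for 15 hr with vehicle (DMSO) or with 3 nM quizartinib (AC220), an inhibitor of FLT3. The medium was RPMI, or hBMSC-CM, in which medium conditioned by the human bone marrow stromal line HS-5 was mixed with fresh RPMI. This gave 4 groups of 3 libraries each: vehicle in RPMI, quizartinib in RPMI, vehicle in hBMSC-CM and quizartinib in hBMSC-CM. All groups are 1 cell line at 1 time, without living stromal cells in the culture. The study's checklist calls its replicates biological, and the labels do not say what was repeated for each library, so errors and p-values measure the spread between these libraries.

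HLA class II molecules are pairs of an alpha and a beta chain that show peptides from endosomes to CD4+ T cells. CIITA is the coactivator that sets class II transcription. It does not bind DNA itself but joins a complex of RFX, CREB and NF-Y factors that sits on the X and Y boxes of class II promoters. CD74, the invariant chain, escorts new class II pairs to the endosome, and HLA-DM (HLA-DMA and HLA-DMB) then helps load them with peptide. Class II molecules are made mainly by dendritic cells, B cells and monocytes, and are also found on many AML cells.

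The promoter stretches show what these genes share in sequence. They were read from the RefSeq promoter windows of GRCh38.p14, from 250 bases before to 50 bases after the start, and 8 of the 10 genes had a window (CIITA and HLA-DRA are named only). Capitals mark a core of the X box, AGNNACNGATG, and the Y box core ATTGG, which reads CCAAT where it lies on the other strand. Both strands were searched, the cores do not overlap, and both were picked with these sequences in view. Each line gives the gene-strand sequence from 5′ to 3′.
HLA-DRB1, chr6:32589882-32589935, minus strand: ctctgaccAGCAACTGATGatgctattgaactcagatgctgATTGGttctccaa
HLA-DQB1, chr6:32666733-32666786, minus strand: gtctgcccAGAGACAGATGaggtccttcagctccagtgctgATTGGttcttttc
HLA-DMA, chr6:32953164-32953218, minus strand: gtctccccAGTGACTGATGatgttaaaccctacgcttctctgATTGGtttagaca
HLA-DMB, chr6:32941038-32941124, minus strand: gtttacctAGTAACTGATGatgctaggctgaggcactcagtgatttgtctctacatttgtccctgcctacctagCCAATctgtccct
HLA-DPB1, chr6:33075851-33075903, plus strand: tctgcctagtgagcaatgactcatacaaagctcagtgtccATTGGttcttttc
CD74, chr5:150412951-150413003, minus strand: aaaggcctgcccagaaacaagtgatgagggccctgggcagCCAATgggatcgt

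The X core stood in the windows of 4 of these 8 genes (HLA-DRB1, HLA-DQB1, HLA-DMA and HLA-DMB) and in 287 (0.817%) of all 35116 windows. The Y core stood in the windows of 7 of the 8 (all but HLA-DPA1) and in 34.6% of all windows, so alone it sets these genes little apart. In HLA-DRB1 and HLA-DQB1 the Y core began 33 bases after the start of the X core, and in HLA-DMA 34 bases after it. An X core followed within 40 bases by a Y core on the gene strand was found in 7 windows (0.0199% of all), of which 4 belonged to HLA-DRB1, HLA-DQB1, HLA-DMA and HLA-DRB5. These matches describe the letters only. The windows of HLA-DPB1 and CD74 are shown as examples of the 3 (with that of HLA-DQA1) that hold the Y core without the X core as spelled here.

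Total counts were 19966546 to 31546104 per library and overlapped between the groups, and the TMM factors of edgeR that scale the libraries lay between 0.956 and 1.04. Levels are counts divided by the library total times these factors and set to the usual scale of CPM. Changes are log2 fold changes from edgeR's quasi-likelihood fit over the 12998 genes whose mean count and mean CPM reached 1, and a gene is said to be called where its Benjamini-Hochberg adjusted p was under 0.05. Of the 10 genes, 9 passed this filter, and HLA-DQA1 did not. HLA-DPA1 and HLA-DPB1 passed through their levels with quizartinib. In bulk RNA, fewer cells that express a gene and less RNA per cell cannot be told apart.

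CIITA lies at chr16:10866222-10943021 on the plus strand (GRCh38, GENCODE release 44). With vehicle in RPMI its 3 libraries held 168, 159 and 113 counts, or 5.74, 6.20 and 5.20 CPM. With quizartinib in RPMI they held 57.3, 56.6 and 56.3 CPM. In hBMSC-CM the levels were 5.95, 6.24 and 5.03 CPM with vehicle and 28.6, 31.2 and 33.9 CPM with quizartinib. The vehicle groups of the 2 media overlapped, every quizartinib library lay far above them, and the quizartinib libraries in hBMSC-CM all lay below those in RPMI. The log2 fold change with quizartinib was 3.31 (SE 0.09) in RPMI and 2.44 (SE 0.09) in hBMSC-CM. Between the media it was 0.00 (SE 0.11) with vehicle and −0.86 (SE 0.06) with quizartinib. CIITA overlaps DEXI on the opposite strand, and the sources used here do not give the strand setting of the counts.

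CD74 (chr5:150401637-150412969, minus strand) was by far the most abundant of the 10. It stood at 352, 318 and 335 CPM with vehicle in RPMI and at 704, 741 and 761 CPM with quizartinib in RPMI. In hBMSC-CM it stood at 373, 361 and 348 CPM with vehicle and at 558, 532 and 538 CPM with quizartinib. Its groups fell in the same order as those of CIITA, with the vehicle groups overlapping and quizartinib in RPMI highest, but over a smaller range. The log2 fold change with quizartinib was 1.14 (SE 0.05) in RPMI and 0.59 (SE 0.05) in hBMSC-CM, and hBMSC-CM against RPMI gave −0.44 (SE 0.05) with quizartinib and 0.11 (SE 0.05) with vehicle. CD74 and CIITA were the members that stood lower in the conditioned medium under quizartinib, and no other tested member did.

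**Figure D1:**
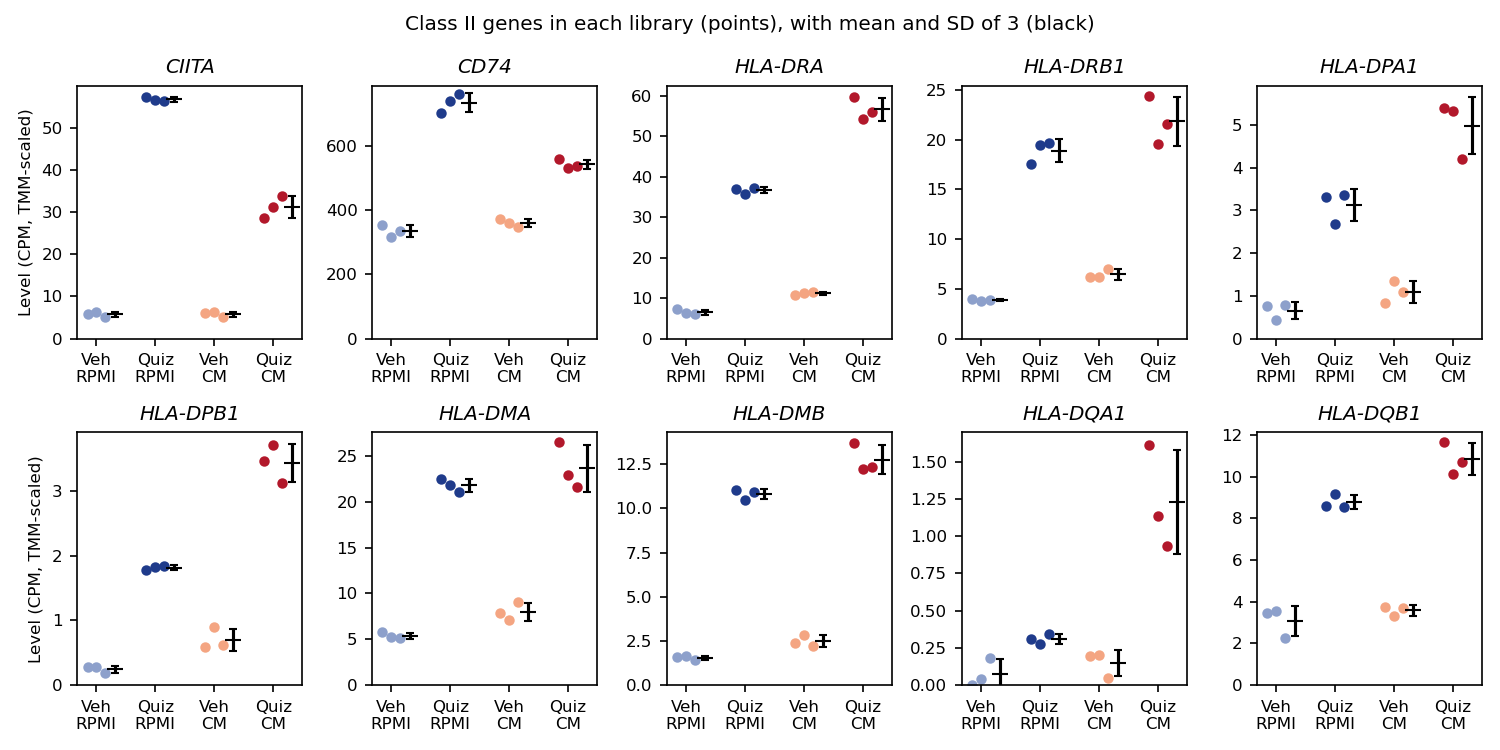
Level of each of the 10 genes in each library (y axis: TMM-scaled CPM, linear from 0, a scale of its own in each panel), by group on the x axis (Veh, vehicle; Quiz, quizartinib; CM, hBMSC-CM). Points are single libraries and the black mark is the mean with the SD of 3. CIITA and CD74 were highest with quizartinib in RPMI, and each HLA gene had its highest mean with quizartinib in hBMSC-CM.

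HLA-DRA and HLA-DRB1 encode the alpha and beta chains of HLA-DR, the most abundant class II molecule on most cells. HLA-DRA (chr6:32439878-32445046, plus strand) was at 7.17, 6.24 and 6.03 CPM with vehicle in RPMI and at 36.8, 35.7 and 37.2 CPM with quizartinib in RPMI. In hBMSC-CM it was at 10.7, 11.1 and 11.5 CPM with vehicle and at 59.7, 54.2 and 55.9 CPM with quizartinib. No groups of HLA-DRA overlapped, and hBMSC-CM lay above RPMI with vehicle and with quizartinib alike. The log2 fold change with quizartinib was 2.49 (SE 0.08) in RPMI and 2.35 (SE 0.07) in hBMSC-CM, and hBMSC-CM against RPMI gave 0.77 (SE 0.09) with vehicle and 0.63 (SE 0.06) with quizartinib. The interaction, which is the effect of quizartinib in hBMSC-CM minus that in RPMI, was −0.13 (SE 0.10).

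HLA-DRB1 (chr6:32577902-32589848, minus strand) went from 3.996, 3.79 and 3.91 CPM to 17.6, 19.4 and 19.6 CPM with quizartinib in RPMI. In hBMSC-CM it went from 6.15, 6.14 and 7.02 CPM to 24.4, 19.5 and 21.6 CPM. The media were apart with vehicle, by a log2 fold change of 0.72 (SE 0.12), while the quizartinib groups overlapped and differed by 0.22 (SE 0.08). The counts of HLA-DRB1 per count of HLA-DRA lay between 0.557 and 0.649 with vehicle in RPMI, and between 0.360 and 0.408 with quizartinib in hBMSC-CM, the lowest of the 4 groups. Reads of HLA-DRB1 may be shared with near-identical DRB genes, so its level is uncertain. HLA-DRB5 held 10, 56, 19 and 76 counts over the 3 libraries of vehicle in RPMI, quizartinib in RPMI, vehicle in hBMSC-CM and quizartinib in hBMSC-CM.

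HLA-DPA1 and HLA-DPB1 encode the chains of HLA-DP and were low in all groups. HLA-DPA1 (chr6:33064569-33080775, minus strand) stood at 0.751, 0.429 and 0.783 CPM with vehicle in RPMI and at 3.32, 2.69 and 3.36 CPM with quizartinib in RPMI. In hBMSC-CM it stood at 0.822, 1.35 and 1.09 CPM with vehicle and at 5.40, 5.34 and 4.21 CPM with quizartinib. The groups were apart, though narrowly so between the vehicle groups. HLA-DPB1 (chr6:33075990-33089696, plus strand) held 19 counts over the 3 vehicle libraries in RPMI, 0.273, 0.273 and 0.184 CPM. With quizartinib in RPMI it was at 1.78, 1.83 and 1.85 CPM, and in hBMSC-CM at 0.592, 0.899 and 0.617 CPM with vehicle and at 3.47, 3.72 and 3.13 CPM with quizartinib. Its 4 groups did not overlap, and of the 9 tested members HLA-DPB1 had the largest log2 difference between the media, 1.45 (SE 0.34) with vehicle and 0.92 (SE 0.15) with quizartinib. The genes overlap each other by 4786 bases on opposite strands, so without strand some reads cannot be assigned to one or the other.

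HLA-DQA1 and HLA-DQB1, which encode the chains of HLA-DQ, were unequal in level. HLA-DQA1 (chr6:32628179-32647062, plus strand) held 0, 1 and 4 counts with vehicle in RPMI and 8, 8 and 7 with quizartinib in RPMI. In hBMSC-CM it held 6, 4 and 1 counts with vehicle and 46, 26 and 20 with quizartinib. The vehicle groups overlapped, the quizartinib groups lay above them, and the libraries of quizartinib in hBMSC-CM, at 1.61, 1.14 and 0.936 CPM, were the highest. A count of 0 allows up to 3 counts, which is 0.1025 CPM in that library, a limit for counting error alone. HLA-DQB1 (chr6:32659467-32668383, minus strand) was at 3.45, 3.55 and 2.26 CPM with vehicle in RPMI and at 8.61, 9.19 and 8.57 CPM with quizartinib in RPMI. In hBMSC-CM it was at 3.75, 3.30 and 3.70 CPM with vehicle and at 11.6, 10.1 and 10.7 CPM with quizartinib. HLA-DQB1 had the smallest quizartinib effect of the tested HLA genes in RPMI, 1.49 (SE 0.13), and 1.59 (SE 0.13) in hBMSC-CM, and its vehicle groups overlapped. For each count of HLA-DQA1 there were 28.9 counts of HLA-DQB1 with quizartinib in RPMI and 8.62 with quizartinib in hBMSC-CM, over the summed libraries. Alleles of HLA-DQA1 and HLA-DQB1 differ much in sequence, and how well the line's own alleles map to the reference was not measured here.

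HLA-DMA and HLA-DMB encode the peptide-loading partner HLA-DM. HLA-DMA (chr6:32948613-32969094, minus strand) went from 5.77, 5.23 and 5.16 CPM to 22.5, 21.8 and 21.1 CPM with quizartinib in RPMI. In hBMSC-CM it went from 7.82, 7.09 and 9.02 CPM to 26.5, 22.9 and 21.6 CPM. As with HLA-DRB1, the media were apart with vehicle but overlapped with quizartinib, where the log2 difference was 0.12 (SE 0.08). HLA-DMB (chr6:32934629-32941028, minus strand) went from 1.57, 1.64 and 1.43 CPM to 11.05, 10.5 and 10.95 CPM in RPMI, and from 2.40, 2.85 and 2.23 CPM to 13.7, 12.2 and 12.3 CPM in hBMSC-CM. No groups of HLA-DMB overlapped. The log2 fold change with quizartinib in RPMI was 2.80 (SE 0.14) for HLA-DMB and 2.01 (SE 0.10) for HLA-DMA. HLA-DMB per HLA-DMA count was 0.272 to 0.313 with vehicle in RPMI and 0.482 to 0.518 with quizartinib in RPMI, and 0.247 to 0.401 and 0.517 to 0.573 in hBMSC-CM. A readthrough gene of the annotation overlaps both on the same strand.

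Compared per length, as CPM per kb of all exons joined, CD74 stood above every other member at 162.5 ± 6.43 (SD, n = 3) with quizartinib in RPMI. HLA-DRA followed at 29.4 ± 0.621, HLA-DMA at 8.66 ± 0.276 and HLA-DRB1 at 6.12 ± 0.368. CIITA, whose exons are long, was at 2.52 ± 0.0227, between HLA-DMB at 2.35 ± 0.0633 and HLA-DRB1. HLA-DPA1 at 0.544 ± 0.0650, HLA-DPB1 at 0.348 ± 0.00726 and HLA-DQA1 at 0.0448 ± 0.00468 were the lowest. CD74, HLA-DRA, HLA-DMA and HLA-DRB1 led in the same order with the canonical transcript as the length, a choice made after seeing the data, while CIITA then stood below HLA-DMB, at 3.53 ± 0.0319 against 8.04 ± 0.217.

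Over the tested members, quizartinib against vehicle was called higher for 9 of 9 in RPMI, where 39.8% of all tested genes were called higher and 39.4% lower, and for 9 of 9 in hBMSC-CM, where 33.5% were called higher and 33.6% lower. Scaled by library size only, the higher share of all calls in hBMSC-CM was 62.7%, where TMM gave 4358 higher among 8722 calls, and the 9 members stayed called higher. At least 2-fold higher were 9 of 9 in RPMI (9.55% of all genes) and 8 of 9 in hBMSC-CM (4.88%), the exception being CD74. The median log2 fold change of the 9 was 2.27 in RPMI and 2.25 in hBMSC-CM, against 0.02 and 0.01 over all tested genes. These counts describe genes that were chosen for such changes. With quizartinib, hBMSC-CM against RPMI was called higher for 6 members (35.9% of all genes), called lower for CIITA and CD74 (33.9% of all genes) and not called for HLA-DMA. HLA-DRB1, HLA-DMB and HLA-DQB1, whose differences were 0.22 to 0.30, lost their call without quizartinib in hBMSC-CM replicate 1, which left 5 members called. With vehicle, hBMSC-CM against RPMI was called higher for HLA-DRA, HLA-DRB1, HLA-DPB1, HLA-DMA and HLA-DMB (16.6% of all genes were) and lower for no member (15.5%). The interaction was called negative for CIITA, CD74, HLA-DRB1 and HLA-DMA (18.8% of all genes) and positive for no member (26.4%).

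**Figure D2:**
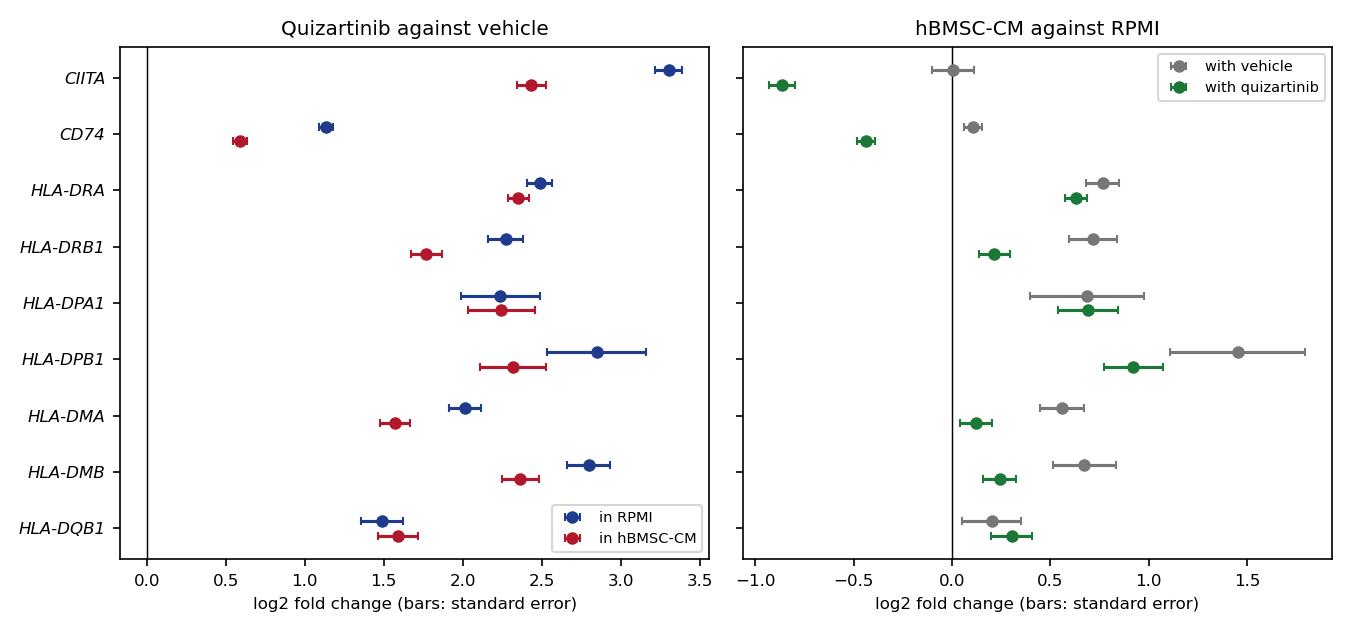
Log2 fold change (x axis) of the 9 members that passed the filter (y axis), with bars for the standard error of the fit. Left, quizartinib against vehicle in RPMI (blue) and hBMSC-CM (red), where every value was above 0. Right, hBMSC-CM against RPMI with vehicle (grey) and quizartinib (green), where CIITA and CD74 were the members below 0 with quizartinib.

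The HLA genes and CIITA thus took different orders over the 4 groups. A ratio of counts within a library does not depend on the scaling between libraries. HLA-DRA gave 1.25, 1.01 and 1.16 counts per count of CIITA with vehicle in RPMI and 0.643, 0.632 and 0.661 with quizartinib in RPMI. In hBMSC-CM the ratios were 1.80, 1.78 and 2.29 with vehicle and 2.08, 1.74 and 1.65 with quizartinib, which overlapped each other and lay above both RPMI groups. For all 8 other tested members, every quizartinib library in hBMSC-CM had a higher ratio to CIITA than any in RPMI, but this held for 90.1% of all tested genes, since CIITA itself was lower there. With vehicle, where CIITA did not differ between the media, 5 of the 8 ratios were higher in every hBMSC-CM library, against 9.22% of all genes. These ratios share CIITA and are not independent of each other. With quizartinib in RPMI all 8 ratios lay below those with vehicle, as for 99.6% of all genes. In hBMSC-CM this was so for 4 of the 8, while it was so for 99.2% of all genes. The members were chosen for their changes between these groups, so their ratio counts beside those of all genes are a description only.

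**Figure D3:**
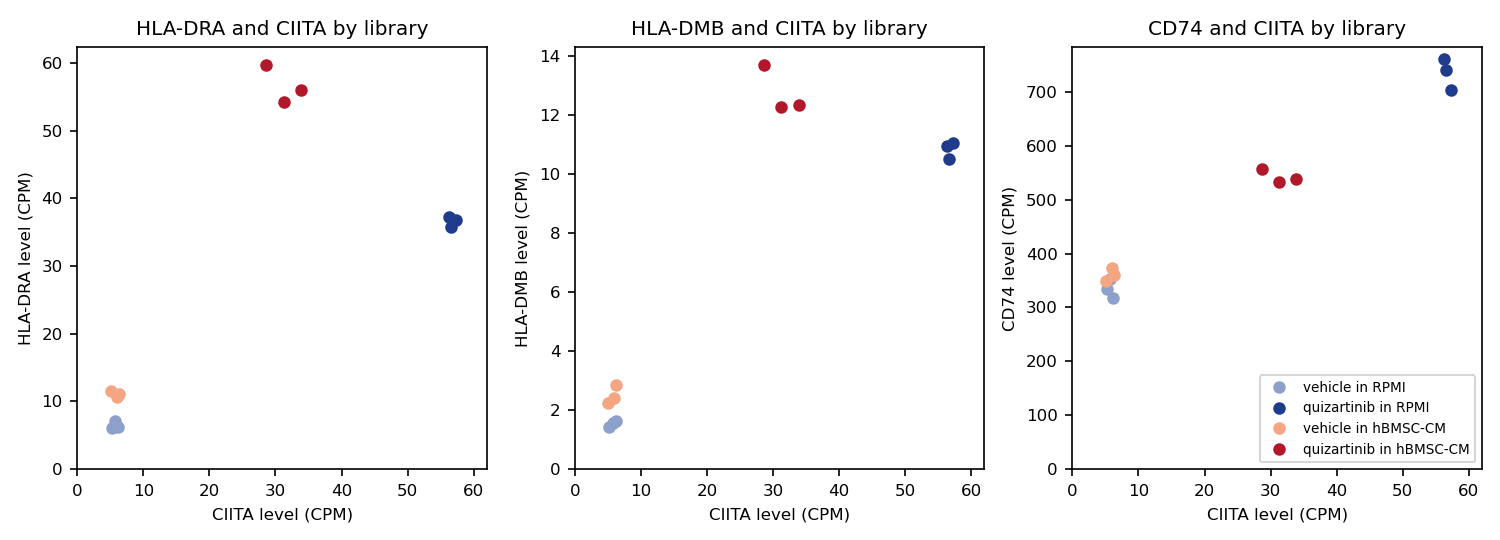
Level of HLA-DRA, HLA-DMB and CD74 (y axes, CPM) against that of CIITA (x axis, CPM) in each of the 12 libraries, coloured by group, on linear axes from 0. HLA-DRA and HLA-DMB were higher in hBMSC-CM under quizartinib although CIITA was lower, while CD74 was lower along with CIITA.

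Genes were also ranked by how like their pattern over the 4 groups was to that of CIITA, as the root mean square difference of centred log2 CPM among 9284 genes, those at 10 CPM or more on average and the members. The 5 nearest were CD36 (0.13), a fatty acid and lipoprotein receptor, SERPINF1 (0.17), a secreted serpin, OLIG1 (0.24), a transcription factor, MPEG1 (0.32), a pore-forming protein of macrophages, and ISG20 (0.35), an exonuclease induced by interferon. CD36 stood at 5.65 ± 0.666, 55.0 ± 1.18, 4.55 ± 0.201 and 30.5 ± 0.417 CPM (SD, n = 3) in vehicle and quizartinib in RPMI and then in hBMSC-CM, close to the levels of CIITA. Of the members, HLA-DMB ranked nearest at place 13 (0.48), HLA-DRB1 and HLA-DRA took places 31 and 35, and CD74 came last at place 400 (1.01). Without the minimum of 10 CPM, 1 of these 5 nearest genes stayed among the nearest 5. The ranking rests on 4 group means and is a description.

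Of the other class II genes, 12 were in the table and HLA-DOB alone passed the filter. HLA-DOB encodes the beta chain of HLA-DO, which holds HLA-DM back. Its counts were 105, 115 and 112 with vehicle and 101, 82 and 64 with quizartinib in RPMI, and 146, 79 and 113 and then 182, 127 and 108 in hBMSC-CM. In CPM the RPMI groups overlapped, at 3.59 to 5.16 with vehicle and 2.83 to 3.90 with quizartinib. It fell by 0.41 on the log2 scale (SE 0.16, adjusted p = 0.0252 by edgeR's quasi-likelihood test) with quizartinib in RPMI, opposite in direction to the 9 members, and differed by 0.27 (SE 0.15, adjusted p = 0.106) in hBMSC-CM. With quizartinib, hBMSC-CM against RPMI raised it by 0.80 (SE 0.16, adjusted p = 0.00011). HLA-DOB overlaps a readthrough gene on the same strand. HLA-DOA, the alpha chain, held 2, 7, 3 and 18 counts over the 3 libraries of vehicle and quizartinib in RPMI and then in hBMSC-CM.

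The genes listed for the DNA-binding complex and cofactors of CIITA, with EZH2 among them, moved in both directions. Of 14 tested genes, quizartinib in RPMI raised 6 and lowered 7 (39.8% and 39.4% of all tested genes), and in hBMSC-CM it raised 5 and lowered 6 (33.5% and 33.6%), with medians of −0.19 and −0.08. The RFX subunits parted. RFX5 rose by 0.51 (SE 0.04, adjusted p = 8.72e-10) in RPMI and by 0.34 (SE 0.04, adjusted p = 1.11e-06) in hBMSC-CM, whereas RFXAP fell by 0.94 (SE 0.11, adjusted p = 4.09e-08) and by 0.35 (SE 0.10, adjusted p = 0.00596). RFXANK rose by 0.31 (SE 0.07, adjusted p = 0.00019) in RPMI and differed by 0.15 (SE 0.07, adjusted p = 0.0526) in hBMSC-CM. The acetyltransferases CREBBP and EP300, which CIITA recruits, rose by 0.96 (adjusted p = 1.95e-10) and 0.71 (adjusted p = 5.72e-09) in RPMI. With quizartinib, hBMSC-CM against RPMI lowered CREBBP by 0.82 (adjusted p = 4.9e-09), the direction of CIITA. The 14 genes went both ways there, 6 called higher and 7 lower (35.9% and 33.9% of all tested genes), with a median of −0.04. EZH2, the histone methyltransferase of the polycomb complex that can silence CIITA, fell by 1.04 (SE 0.05, adjusted p = 6.67e-15) in RPMI and by 0.62 (SE 0.05, adjusted p = 1.82e-10) in hBMSC-CM.

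Interferon-gamma is the best known inducer of CIITA outside professional antigen-presenting cells, and it acts through its receptor, the kinases JAK1 and JAK2, and the factor IRF1. IFNG itself had 0 counts in all 12 libraries. Of the 8 tested genes of this route given here, quizartinib raised 8 in RPMI (39.8% of all tested genes were called higher and 39.4% lower), and in hBMSC-CM it raised 5 and lowered none (33.5% and 33.6% of all). JAK2 rose by 1.25 (SE 0.05, adjusted p = 6.13e-16) in RPMI and by 0.83 (SE 0.05, adjusted p = 8.85e-12) in hBMSC-CM, and JAK1 by 0.76 (adjusted p = 6.97e-13) and 0.43 (adjusted p = 2.94e-08). IRF1 rose by 0.45 (SE 0.05, adjusted p = 1.27e-08) in RPMI. In hBMSC-CM it was not called by edgeR's quasi-likelihood test, at −0.05 (SE 0.05, adjusted p = 0.39). With quizartinib, hBMSC-CM against RPMI lowered 6 of the 8 (33.9% of all tested genes) and raised IFNGR1 and SOCS1 (35.9% of all). Among the 6 were JAK2, lower by 0.91 (adjusted p = 3.2e-13), and IRF1, lower by 0.53 (adjusted p = 1.63e-09). With vehicle it raised IFNGR1 by 0.24 (SE 0.05, adjusted p = 0.000516) and SOCS1, an inhibitor of JAK kinases, by 1.03 (SE 0.23, adjusted p = 0.00121).

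In a list of myeloid and lymphoid regulators, not all of them known to act on CIITA, 8 of 10 genes were tested. Quizartinib raised 4 and lowered 3 in RPMI (39.8% and 39.4% of all genes), and raised 3 and lowered 2 in hBMSC-CM (33.5% and 33.6%). SPI1 (PU.1), which drives the myeloid CIITA promoter, rose by 0.38 (SE 0.07, adjusted p = 3.2e-05) in RPMI, and IRF8, its partner, fell by 0.21 (SE 0.04, adjusted p = 5.83e-05). In hBMSC-CM neither was called by edgeR's quasi-likelihood test. There SPI1 differed by 0.07 (SE 0.07, adjusted p = 0.384) and IRF8 by 0.09 (SE 0.04, adjusted p = 0.0642). PRDM1 (BLIMP1), a repressor of CIITA in plasma cells, rose by 2.15 (SE 0.07, adjusted p = 3.25e-17) in RPMI and by 2.26 (SE 0.08, adjusted p = 5.28e-16) in hBMSC-CM. BATF3, a factor of cross-presenting dendritic cells, fell by 4.02 (SE 0.21, adjusted p = 5.14e-16) in RPMI and by 1.65 (SE 0.11, adjusted p = 1.27e-11) in hBMSC-CM, the widest change among the genes of these lists.

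In the endosome, 13 of 16 listed genes were tested, and quizartinib raised 9 and lowered 2 in RPMI (39.8% and 39.4% of all genes) and raised 8 and lowered none in hBMSC-CM (33.5% and 33.6%). CTSS, the cathepsin that trims CD74, rose by 0.94 (SE 0.04, adjusted p = 2.5e-14) in RPMI and by 0.58 (SE 0.04, adjusted p = 3.48e-10) in hBMSC-CM. CTSF, another cathepsin that can cut CD74, rose by 2.42 (SE 0.15, adjusted p = 5.15e-13) and by 1.53 (SE 0.18, adjusted p = 8.54e-08). MARCH1, a ubiquitin ligase that sends class II molecules to breakdown, rose by 2.98 (SE 0.15, adjusted p = 5.01e-15) in RPMI and by 2.06 (SE 0.12, adjusted p = 1.78e-12) in hBMSC-CM. With vehicle, MARCH1 was higher in hBMSC-CM by 1.02 (SE 0.17, adjusted p = 7.21e-05), as HLA-DRA was. IFI30, a thiol reductase of the endosome, did not pass the filter and held 20, 53, 33 and 46 counts over the 3 libraries of vehicle and quizartinib in RPMI and then in hBMSC-CM. The interaction was called negative for 9 of the 13 (18.8% of all tested genes) and called positive for 2 (26.4%).

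CD74 is also a receptor for the cytokine MIF, together with CD44, CXCR4 and CXCR2. These 4 partners and DDT made a list of 5 genes, of which DDT did not pass the filter. Quizartinib raised CD44, CXCR4 and CXCR2 and lowered MIF in RPMI (39.8% and 39.4% of all genes). In hBMSC-CM it raised CXCR4 and CXCR2 and lowered MIF (33.5% and 33.6%), and CD44 was not called. MIF fell with quizartinib by 1.21 (SE 0.08, adjusted p = 8.39e-12) in RPMI and by 0.86 (SE 0.08, adjusted p = 4.33e-09) in hBMSC-CM, whereas CXCR4 rose by 1.21 (SE 0.04, adjusted p = 1.9e-16) and by 0.86 (SE 0.04, adjusted p = 3.84e-13). Of the costimulatory and adhesion ligands, 6 of 11 were tested, and quizartinib raised 2 and lowered 2 in RPMI (39.8% and 39.4% of all genes) and raised 3 and lowered 1 in hBMSC-CM (33.5% and 33.6%). CD86, the ligand of CD28, rose by 1.36 (SE 0.06, adjusted p = 1e-14) in RPMI and by 1.06 (SE 0.06, adjusted p = 2.31e-12) in hBMSC-CM. ICOSLG, the ligand of ICOS, was raised in hBMSC-CM against RPMI by 2.10 (SE 0.10, adjusted p = 1.5e-14) with quizartinib and by 0.93 (SE 0.09, adjusted p = 3.77e-08) with vehicle, and ICAM1 by 1.37 (SE 0.07, adjusted p = 7.69e-14) and 1.18 (SE 0.06, adjusted p = 7.12e-12). CD80 and CD40 did not pass the filter.

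The HLA class I genes and their partners had log2 fold changes between −0.68 and 0.89 with quizartinib in RPMI. Of these 10 class I counterparts, quizartinib raised 8 and lowered 2 in RPMI, with a median of 0.53, and raised 7 and lowered 1 in hBMSC-CM, with a median of 0.23. Over all tested genes the shares called higher and lower were 39.8% and 39.4% in RPMI and 33.5% and 33.6% in hBMSC-CM, with medians of 0.02 and 0.01. B2M, the light chain of class I, rose by 0.47 (SE 0.05, adjusted p = 1.16e-08) and 0.26 (SE 0.05, adjusted p = 9.03e-05). With quizartinib, 6 of the 10 were called lower in hBMSC-CM (33.9% of all genes) and 2 were called higher (35.9%), and HLA-B and HLA-F were not called. NLRC5, the coactivator of class I genes and a relative of CIITA, was the one that rose most there, by 0.67 (SE 0.04, adjusted p = 2e-11), while with quizartinib in RPMI it fell by 0.19 (SE 0.05, adjusted p = 0.000644).

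**Figure D4:**
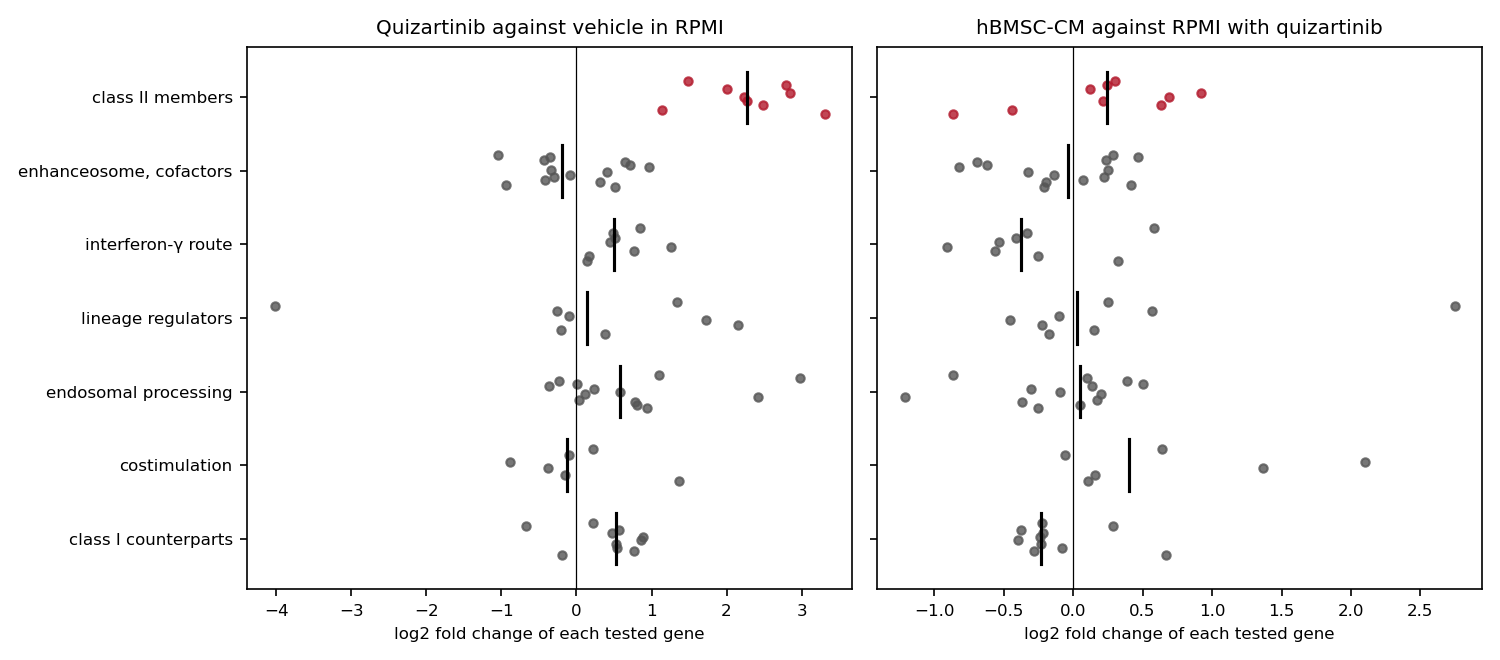
Log2 fold change (x axis) of each tested gene in 7 lists (y axis), for quizartinib against vehicle in RPMI (left) and hBMSC-CM against RPMI with quizartinib (right); each point is a gene and the black bar is the median of the list. The class II members (red) had a median of 2.27 on the left and 0.24 on the right, and the other lists spread to both sides of 0, except that the genes of the interferon-γ route shown were all above 0 on the left.

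Markers of other cells were measured in the same libraries. Of 10 myeloid leukemia cell markers, 9 passed the filter on low counts. CD14 did not, with means of 0.179 and 0.249 CPM with vehicle and quizartinib in RPMI and 1.58 and 1.67 CPM in hBMSC-CM. The summed level of the 10 was 1168 to 1221 CPM with vehicle and 1790 to 1797 CPM with quizartinib in RPMI. In hBMSC-CM it was 1437 to 1475 and 2142 to 2317 CPM. Of 10 stromal markers, COL3A1, THY1, LUM, DCN and POSTN had 0 counts in all groups, and the summed level was 1.16 to 1.66 CPM with vehicle and 5.56 to 6.33 CPM with quizartinib in RPMI, and 1.04 to 1.71 and 2.06 to 2.36 CPM in hBMSC-CM. The higher sum in RPMI was mostly COL1A1, with a mean of 0.177 CPM with vehicle and 4.59 CPM with quizartinib, while FN1 went from 0.918 to 0.627 CPM. The 6 B cell markers summed to 2.596 to 3.28 and 8.80 to 9.39 CPM in RPMI and to 2.597 to 3.52 and 6.88 to 6.91 CPM in hBMSC-CM, most of it PAX5. The 6 T cell markers, with CD3E at 0, summed to between 4.29 and 6.60 CPM over all groups. The 8 dendritic cell markers summed to 8.84 to 11.03 CPM with vehicle and 14.0 to 15.2 CPM with quizartinib in RPMI, and to 17.7 to 20.3 and 35.3 to 38.6 CPM in hBMSC-CM. CD1C, CLEC9A and LAMP3 of that list had group means under 0.05 CPM. With quizartinib, the higher myeloid sum in hBMSC-CM rested mostly on LYZ, with a mean of 352.5 CPM in RPMI and 1009 CPM in hBMSC-CM. PTPRC (532 and 447 CPM) and FLT3 (451.5 and 157 CPM) went the other way. Within RPMI, the rise of the sum with quizartinib lay mostly in PTPRC (from 269.8 to 532 CPM) and FLT3 (from 208.9 to 451.5 CPM). LYZ rose there from 275 to 352.5 CPM, and CSF1R, SPI1 and CD14 also had higher means. The others of the list fell there. CEBPA went from 221.6 to 167.2 CPM, CD33 from 92.4 to 75.6 CPM, ITGAM from 22.6 to 11.2 CPM and MPO from 4.10 to 3.06 CPM. The part of these marker levels in the class II values was not tested.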

How the data were processed

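RNA was measured by poly-A-selected, paired-end RNA-seq in 12 MOLM-13 libraries. The authors trimmed adapters with BBDuk, dropped reads under 50 bases, aligned to hg38 (Ensembl release 96) and counted with STAR 2.6.0a, per the methods and the submitters' processing notes. They deposited raw counts per gene name, without normalization, with identifiers of 1 name added together. A table of this kind cannot reassign reads between near-identical or overlapping genes.

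Groups came from the labels. Counts were scaled by TMM and fitted with edgeR 4.0.16 (glmQLFit, glmQLFTest; R 4.3.3) as 4 group means with 8 residual degrees of freedom, for 5 contrasts, two-sided, with Benjamini-Hochberg adjustment over 12998 genes. Genes with a mean under 1 in raw counts or in CPM were left out. The standard errors are Wald errors of that fit. DESeq2 1.42.0 and limma 3.58.1 were alternatives, beside other scalings, filters and thresholds, the replicate number as a block, and each library left out. The fit was tried on simulated counts in which a small part of the genes was changed, with quizartinib in RPMI only. In the real libraries 79.2% of tested genes were called in that comparison, so the simulation cannot show how the scaling behaves here.

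The members and the gene lists were chosen with earlier results of these data known. Named were all members, some fixed cofactors, and at most the 3 largest changes of each other list per contrast; not all are printed, and 1 gene of the interferon-gamma list is not reported here, so the counts of that list leave it out. Likeness to CIITA used log2 CPM with a prior count of 2. Coordinates and lengths are from GENCODE release 44 and promoters from RefSeq. No sequencing batch is named in the labels.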

Additional observations from a re-analysis of the deposited data

Results flagged for a closer look

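The difference between the effects of quizartinib in hBMSC-CM and in RPMI was tested as an interaction in the edgeR fit, and the results below passed an adjusted p of 0.05. Among the members, which were chosen with such values known and so get no p here, it was −0.87 (SE 0.13) on the log2 scale for CIITA, −0.54 (SE 0.07) for CD74, −0.50 (SE 0.15) for HLA-DRB1 and −0.44 (SE 0.14) for HLA-DMA, so each rose less with quizartinib in hBMSC-CM. HLA-DRA, at −0.13 (SE 0.10), HLA-DPA1, at 0.01 (SE 0.33), and HLA-DQB1, at 0.10 (SE 0.18), were not among them. HLA-DPB1, at −0.53 (SE 0.38), and HLA-DMB, at −0.43 (SE 0.18), did not pass either, though their values were as far from 0 as those of HLA-DRB1 and HLA-DMA. HLA-DMB passed with DESeq2 size factors (−0.45) and upper-quartile factors (−0.46), and without vehicle in hBMSC-CM replicate 3 or quizartinib in hBMSC-CM replicate 1 (both −0.49).

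Of the other named genes, the interaction was positive for BATF3 at 2.37 (SE 0.23), ICOSLG at 1.17 (SE 0.13), HLA-DOB at 0.68 (SE 0.22), RFXAP at 0.60 (SE 0.15) and NLRC5 at 0.34 (SE 0.06). It was negative for MARCH1 at −0.92 (SE 0.19), CTSF at −0.89 (SE 0.24), MARCH8 at −0.71 (SE 0.10), CREBBP at −0.59 (SE 0.11) and IRF1 at −0.50 (SE 0.07). Of these, ICOSLG changed direction with quizartinib, at −0.88 (SE 0.10) in RPMI and 0.29 (SE 0.08) in hBMSC-CM, and NLRC5 went from −0.19 (SE 0.05) to 0.14 (SE 0.04).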

How the results depend on the processing

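All 9 tested members kept their direction and call for quizartinib against vehicle in both media under every alternative run. Scaled by library size only, the tested genes together had a median of 0.112 in both quizartinib comparisons. With TMM their medians were 0.0203 in RPMI and 0.0107 in hBMSC-CM. Library size only also put 62.7% of the calls in hBMSC-CM on the higher side. Without the filter HLA-DQA1 was called too, and 10 members were called in RPMI. With quizartinib, the members called between the media went from 8 to 5 at an adjusted p of 0.01, and to between 5 and 8 with a library left out, 5 without quizartinib in hBMSC-CM replicate 1 (HLA-DRB1, HLA-DMB and HLA-DQB1 lost their call). HLA-DRB1 also lost it with upper-quartile factors (0.16), the DESeq2 test (0.20) and without quizartinib in RPMI replicate 1 (0.16), and HLA-DMB with the DESeq2 test (0.23) and without quizartinib in RPMI replicate 2 (0.21). The cause was not tested. Of 763 alternative values of members, 728 kept direction and call, 12 lost a call, 7 gained one and 16 changed sign, all of values near 0. Of 1794 of the other named genes, 1752 kept both and none changed sign. CIITA between the media with vehicle was −0.0115 with library size only, −0.0217 with upper-quartile factors and −0.0501 to 0.0820 with a library left out. The interaction of HLA-DPA1 was −0.00777 with DESeq2 size factors, −0.0192 with upper-quartile factors, −0.0309 with the DESeq2 test, −0.00689 with limma-voom and −0.200 to 0.216 with a library left out, and that of HLA-DQB1 −0.0147 to 0.255. The replicate numbers did not pair the libraries (r from −0.228 to 0.0979 over 18 same-number pairs). Over 36 pairs of different numbers r lay between −0.152 and 0.231, and 8 of them were over 0.1. Whether libraries match between groups in another order was not tested. With the number as a block 9, 9, 8, 5 and 4 members were called in the 5 contrasts, as without it. Depth limits HLA-DPA1, HLA-DPB1 and HLA-DQA1, whose vehicle libraries hold few counts.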

Other observations

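Of the dendritic cell markers, CLEC10A and CD209, both C-type lectins of myeloid antigen-presenting cells, carried most of the summed level, and are named after their values were seen. CLEC10A stood at a mean of 3.65 CPM with vehicle and 5.34 CPM with quizartinib in RPMI, and at 8.17 and 17.6 CPM in hBMSC-CM. CD209 stood at 4.97 and 4.49 CPM in RPMI and at 9.99 and 14.6 CPM in hBMSC-CM. Of the same list, FCER1A (0.914 and 0.696 CPM with quizartinib in RPMI and in hBMSC-CM) and XCR1 (0.441 and 0.145 CPM) had their highest mean with quizartinib in RPMI. CCR7 was higher with quizartinib in both media, at a mean of 0.273 CPM with vehicle and 3.27 CPM with quizartinib in RPMI. In hBMSC-CM its means were 0.405 and 3.415 CPM.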
